A study of Mus musculus with 53 samples.

Results

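Transcript levels of 8 genes that control the formation of adipocytes or the production of heat by brown and beige fat were examined in mouse sciatic nerve (SCN). They were taken by symbol from the 49568 genes listed for each sample, and all 8 symbols were found. They comprised the transcription factors Pparg, Cebpa and Cebpb, the transcriptional coregulator Prdm16, the adrenergic receptor gene Adrb3, and the thermogenic genes Ucp1, Dio2 and Elovl3. SCN RNA was measured in male C57BL/6J mice that received a standard diet (SD) or a high-fat diet (HFD) from 5 weeks of age, in order to compare models of prediabetes and type 2 diabetes (T2D) with and without dietary reversal (DR). At 16 weeks of age, 5 SD, 7 HFD and 5 HFD-STZ samples were available, and 24-week samples numbered 8 for SD, 7 for HFD, 8 for HFD-STZ, 7 for HFD-DR and 6 for HFD-STZ-DR, which gave 53 in all. HFD mice served as the model of prediabetes. HFD-STZ mice, the model of T2D, were HFD-fed mice given streptozotocin (STZ), a toxin of pancreatic beta cells, at 12 weeks of age, with a dose of 75 mg/kg and then one of 50 mg/kg. HFD-DR and HFD-STZ-DR mice were moved to the control diet at 16 weeks and kept on it for 8 weeks. SD mice received neither HFD nor STZ.

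PPARG is the nuclear receptor that adipocytes need in order to form and to store triglyceride, and it works together with C/EBP alpha, whereas C/EBP beta acts early in adipogenesis and is also made by many other cells. In brown and beige adipocytes, noradrenaline binds the beta3-adrenergic receptor encoded by Adrb3, cAMP rises and lipolysis begins. The fatty acids released activate UCP1, which uncouples mitochondrial respiration and so produces heat. Dio2 encodes the deiodinase that makes active thyroid hormone in brown fat, Elovl3 encodes an enzyme that lengthens fatty acids, and PRDM16 drives brown and beige fat gene programmes. The outer connective tissue of a peripheral nerve can hold adipocytes.

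Each deposited value is a log2 expression value that the authors had normalised between samples. The number of reads behind a value is unknown. Labelled tissue was checked against markers, and the Schwann cell gene Sox10, encoding a transcription factor of the glial lineage, ran from 14.26 to 15.31 in the 53 samples. The adipocyte gene Adipoq, encoding adiponectin, ran from 8.34 to 14.60, and the skeletal muscle gene Acta1 ran from 7.34 to 18.49, so genes of both tissues differed far more between samples than Sox10 did. An adipocyte marker score, the mean log2 value of Adipoq, Plin1, Cidec, Fabp4, Lipe and Plin4, is therefore given beside the results. In whole nerve, fewer cells of a type and less RNA per cell cannot be told apart.

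Pparg lies on chr6:115360951-115490399 (GRCm38, plus strand), Cebpa on chr7:35119293-35121928 (plus), Cebpb on chr2:167688915-167690418 (plus) and Adrb3 on chr8:27225776-27250616 (minus). Prdm16 lies on chr4:154316125-154636873 (minus), Ucp1 on chr8:83290352-83298452 (plus), Dio2 on chr12:90724552-90738438 (minus) and Elovl3 on chr19:46131897-46135694 (plus). All are protein-coding genes. Since the libraries did not mark strand, reads in exons shared with a gene on the opposite strand cannot be assigned to one of them with certainty. Such exon overlap was annotated for Cebpa (Gm45091), Cebpb (Tmem189), Adrb3 (Gm45470), Prdm16 (B230104I21Rik), Dio2 (Gm26512) and Elovl3 (Pitx3). Pparg and Ucp1 had no exon overlap with another gene.

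The promoters of 4 members are shown because Pparg and Cebpa varied together across samples, as did, more loosely and below a gap in Ucp1, Ucp1 and Dio2. The latter relation had r = 0.401, which was 0.240 without the 2 samples farthest from the median of Ucp1. Each line holds the 250 bases before a start site (RefSeq, GRCm38.p6), 5′ to 3′ on the strand of the gene. Capitals mark matches, on either strand, to the C/EBP motif TTGCNNAA, the cAMP response element TGACGTCA, or its part TGACG, which lies within the full element where both match. The Pparg window (chr6:115421816-115422065, plus strand) belongs to the start site farthest downstream of the 3 listed, the Cebpa window is chr7:35119043-35119292 (plus), the Ucp1 window is chr8:83290098-83290347 (plus) and the Dio2 window is chr12:90739039-90739288 (minus).
Pparg: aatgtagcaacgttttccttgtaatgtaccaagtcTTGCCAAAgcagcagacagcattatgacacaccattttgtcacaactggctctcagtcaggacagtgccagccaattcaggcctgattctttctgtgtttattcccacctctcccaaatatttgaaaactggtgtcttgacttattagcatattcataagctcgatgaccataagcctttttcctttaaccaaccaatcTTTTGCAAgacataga
Cebpa: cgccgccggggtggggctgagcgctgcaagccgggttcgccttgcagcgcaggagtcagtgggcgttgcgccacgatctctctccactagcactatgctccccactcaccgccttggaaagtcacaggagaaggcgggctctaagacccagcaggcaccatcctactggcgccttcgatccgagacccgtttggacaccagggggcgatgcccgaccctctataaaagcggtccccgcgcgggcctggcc
Ucp1: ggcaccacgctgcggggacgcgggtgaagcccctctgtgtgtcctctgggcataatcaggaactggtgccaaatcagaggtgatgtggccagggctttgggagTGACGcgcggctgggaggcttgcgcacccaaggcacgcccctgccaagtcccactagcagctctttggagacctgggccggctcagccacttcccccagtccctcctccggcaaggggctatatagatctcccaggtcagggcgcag
Dio2: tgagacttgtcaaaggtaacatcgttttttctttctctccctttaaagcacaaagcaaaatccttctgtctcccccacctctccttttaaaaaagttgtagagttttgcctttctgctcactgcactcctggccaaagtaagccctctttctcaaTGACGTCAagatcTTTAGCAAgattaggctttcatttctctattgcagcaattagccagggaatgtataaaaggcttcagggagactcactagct
In the Pparg window, the C/EBP motif occurred at -215 and -16, counted from the start site, and the windows of the other 2 start sites held 0 matches to it. In the Dio2 window, it occurred at -82, and the full cAMP response element was found at -95. The Ucp1 window held TGACG at -147, and the Cebpa window held none of these motifs. Among 32851 promoters of this length, 9.56% held the C/EBP motif, 1.55% the full element and 17.8% TGACG. These matches describe letters only, and the deposited values do not separate the start sites of a gene.

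Across all samples, the 8 genes fell into a wide range of variability. The pooled standard deviation (SD) within groups was 2.57 log2 units for Ucp1, which lay at percentile 99.9 of the 18069 genes whose mean log2 value reached 3.32, where the median gene had 0.260. Adrb3 had 1.08 (percentile 98.0), Pparg 0.858 (95.7), Cebpa 0.825 (95.2) and Dio2 0.725 (93.1). Cebpb had 0.483 (80.0). Prdm16, at 0.181 (26.7), was the only member with a spread under that of the median gene. Elovl3 had 1.27, but its mean of 2.29 was under the threshold of 3.32 (10 on the linear scale), so it did not enter the tests across genes. The share of a gene's variance that lay between the 8 groups was 38.9% for Pparg, between 27.8% and 29.5% for Cebpa, Cebpb, Adrb3 and Prdm16, 19.4% for Dio2 and 13.6% for Ucp1, beside a median of 15.8%.

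**Figure D1:**
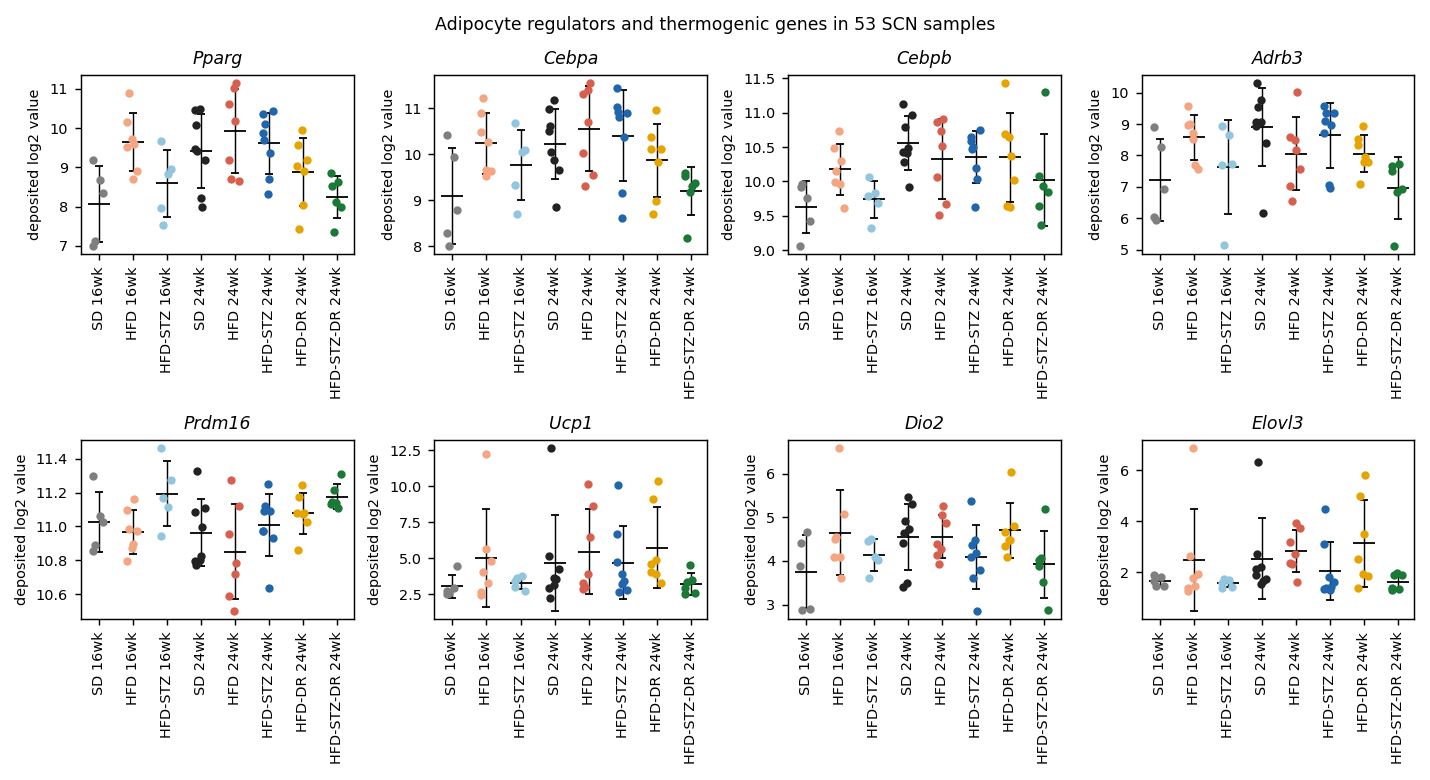
Deposited log2 value of each of the 8 genes (1 panel each) in the 8 groups, with 1 point per sample and the group mean ± SD as horizontal and vertical black lines. The groups overlap for every gene, Prdm16 spans less than 1 log2 unit over all samples, and single samples of several groups stand far above the others for Ucp1 and Elovl3.

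Pparg showed the largest share of variance between groups. At 16 weeks, the 5 SD samples had log2 values of 7.01, 7.13, 8.33, 8.67 and 9.19. The HFD samples ran from 8.69 to 10.89 with a median of 9.59, and the HFD-STZ samples had 7.53, 7.96, 8.83, 8.96 and 9.66. Every HFD sample lay above the SD median, but the highest SD samples reached into the HFD range. At 24 weeks, the lowest, median and highest values were 8.00, 9.44 and 10.49 in SD, 8.64, 10.18 and 11.16 in HFD, and 8.31, 9.78 and 10.44 in HFD-STZ samples. They were 7.44, 9.04 and 9.95 in HFD-DR and 7.36, 8.32 and 8.85 in HFD-STZ-DR samples. All 6 HFD-STZ-DR samples lay below the HFD-STZ median, and all 7 HFD-DR samples lay below the HFD median.

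The largest difference of Pparg by its p-value was that of HFD-STZ-DR from HFD-STZ samples, at -1.36 ± 0.34 (log2 difference ± SE, limma), or 0.388 of the HFD-STZ level, but its adjusted p was 0.179. In 14 fits with 1 sample left out, this log2 difference ran from -1.55 to -1.19, with adjusted p-values from 0.0211 to 0.459. Only the fit without HFD-STZ replicate 6 had an adjusted p under 0.05. That sample had the lowest Pparg of its group, so leaving it out had to widen the difference. HFD and SD samples differed by 1.57 ± 0.42 at 16 weeks (2.97-fold, adjusted p = 0.391) and by 0.52 ± 0.47 at 24 weeks (adjusted p = 0.735). HFD-DR differed from HFD samples by -1.05 ± 0.46 (adjusted p = 0.725).

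Cebpa followed Pparg closely. Its mean was lowest in 16-week SD samples, at 9.09 ± 1.05 (SD, n = 5), and highest in 24-week HFD samples, at 10.55 ± 0.93 (n = 7). In 16-week SD samples, single values were 8.01, 8.28, 8.78, 9.94 and 10.42, while HFD samples of that age ran from 9.52 to 11.22 with a median of 10.26. These groups overlapped, and their difference of 1.16 ± 0.43 had an adjusted p of 0.535 in limma's test. Among 24-week samples, HFD-STZ ran from 8.62 to 11.44 and HFD-STZ-DR from 8.17 to 9.60, with medians of 10.85 and 9.34. The difference of -1.21 ± 0.41 had an adjusted p of 0.429.

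Cebpb varied less than its partners. Its means ran from 9.63 ± 0.38 in 16-week SD samples to 10.55 ± 0.39 in 24-week SD samples (SD, n = 5 and 8), and these groups lay at the ends of its order. The 5 younger SD samples had 9.07, 9.43, 9.76, 9.92 and 9.96, and the 8 older ones ran from 9.92 to 11.13 with a median of 10.46. Only the lowest older sample reached into the range of the younger ones. This difference, 0.93 ± 0.20 (1.9-fold), had the smallest unadjusted p of any member in limma's test, with an adjusted p of 0.223. When all 8 groups were fitted together with the run of library numbers, it was 1.00 with an adjusted p of 0.0456. All 6 skeletal muscle markers were higher in the older SD samples (median difference 2.30, mean score 11.76 against 9.34). With the muscle score as a covariate, the Cebpb difference was 0.75 (adjusted p = 0.253), and with the adipocyte marker score, it was 0.68 (adjusted p = 1.00). HFD-STZ samples of the same ages differed by 0.61 ± 0.18 (adjusted p = 0.289) and HFD samples by 0.15 ± 0.23 (adjusted p = 0.961).

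Adrb3, which encodes the receptor through which noradrenaline starts lipolysis in adipocytes, ran from 5.13 to 10.32 over all samples. Its 5 SD values at 16 weeks were 5.96, 6.04, 6.93, 8.25 and 8.90, and the HFD-STZ values were 5.14, 7.68, 7.73, 8.65 and 8.93. HFD samples of that age ran from 7.57 to 9.57 with a median of 8.70, which placed all 7 above the SD median. At 24 weeks, the lowest, median and highest values were 6.18, 9.06 and 10.32 in SD, 6.55, 8.18 and 10.03 in HFD, 6.97, 9.04 and 9.58 in HFD-STZ, 7.09, 7.96 and 8.94 in HFD-DR and 5.13, 7.22 and 7.73 in HFD-STZ-DR samples. The highest HFD-STZ-DR sample thus lay below all but 1 SD sample, the one at 6.18. HFD-STZ-DR differed from SD samples by -1.94 ± 0.55 (0.26 of the SD level, adjusted p = 0.357), from HFD-STZ by -1.67 ± 0.50 (adjusted p = 0.301) and from HFD-DR samples by -1.09 ± 0.39 (adjusted p = 0.999), all in limma's test. HFD and SD differed by 1.36 ± 0.51 at 16 weeks (adjusted p = 0.543) and by -0.85 ± 0.56 at 24 weeks (adjusted p = 0.655). The change of this difference with age, -2.21 ± 0.82, had an unadjusted p of 0.0124 and an adjusted p of 1.00 in limma.

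Prdm16 differed little between samples, from 10.50 to 11.46 in all 53. Group means ran from 10.85 ± 0.28 in 24-week HFD samples (SD, n = 7) to 11.19 ± 0.19 in 16-week HFD-STZ samples (n = 5). The values of the latter were 10.94, 11.12, 11.17, 11.28 and 11.46. Its largest log2 differences were 0.23 ± 0.09 between HFD-STZ and HFD samples at 16 weeks (adjusted p = 0.987), 0.23 ± 0.11 between HFD-DR and HFD (adjusted p = 0.738) and 0.21 ± 0.09 between HFD-STZ-DR and SD samples (adjusted p = 0.48, limma). The 6 HFD-STZ-DR samples lay within 11.11 to 11.31, the narrowest range of any group for this gene.

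Ucp1, the uncoupling protein of brown fat, was low in most samples and high in a few. The 5 SD samples of 16 weeks had 2.53, 2.58, 2.75, 2.94 and 4.48, and the HFD-STZ samples of that age had 2.75, 2.98, 3.39, 3.64 and 3.78. Lowest, median and highest values were 2.46, 4.07 and 12.22 in 16-week HFD, 2.21, 3.59 and 12.66 in 24-week SD, 2.88, 3.90 and 10.15 in 24-week HFD, 2.69, 3.68 and 10.05 in 24-week HFD-STZ, 3.28, 4.59 and 10.38 in HFD-DR and 2.49, 3.13 and 4.54 in HFD-STZ-DR samples. The medians of the 8 groups lay within 2.75 and 4.59, while the highest and lowest samples of 1 group differed by up to 1392-fold (24-week SD). There was a gap between 6.68 and 8.59, with 7 samples above it and 46 below. The 7 samples came from 5 groups, namely 1 of 16-week HFD, 1 of 24-week SD, 2 of 24-week HFD, 1 of 24-week HFD-STZ and 2 of HFD-DR samples. Their libraries belonged to 4 of the 8 runs of consecutive library numbers.

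The 7 samples with the highest Ucp1 were also the 7 with the highest Elovl3. Elovl3 had values from 3.73 to 6.87 in them and at most 3.48 in the others. For Dio2, 2 of these 7 were among its 7 highest samples, and its values in them, from 4.09 to 6.59, overlapped with the rest, which reached 5.47. Cidea, a lipid droplet gene of brown fat that is no member, had 6 of the 7 among its 7 highest. Cox7a1 and Cox8b, which were also on the list of brown fat markers, did not set the 7 samples apart. Both were highest in HFD-STZ-DR replicate 4 (10.45 and 11.05), where Ucp1 was 3.50. That replicate was 1 of the 2 samples farthest from the median skeletal muscle score, which reached 16.78 in its group. The part of muscle in Cox7a1 and Cox8b was not tested, so their values do not speak for brown fat alone. In HFD-DR replicate 2, where Ucp1 was 9.15, Cox7a1 and Cox8b were 6.94 and 6.76. The adipocyte marker score of the 7 samples ran from 10.15 to 13.12, inside the range of all samples, so high Ucp1 occurred beside both few and many adipocyte transcripts.

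**Figure D2:**
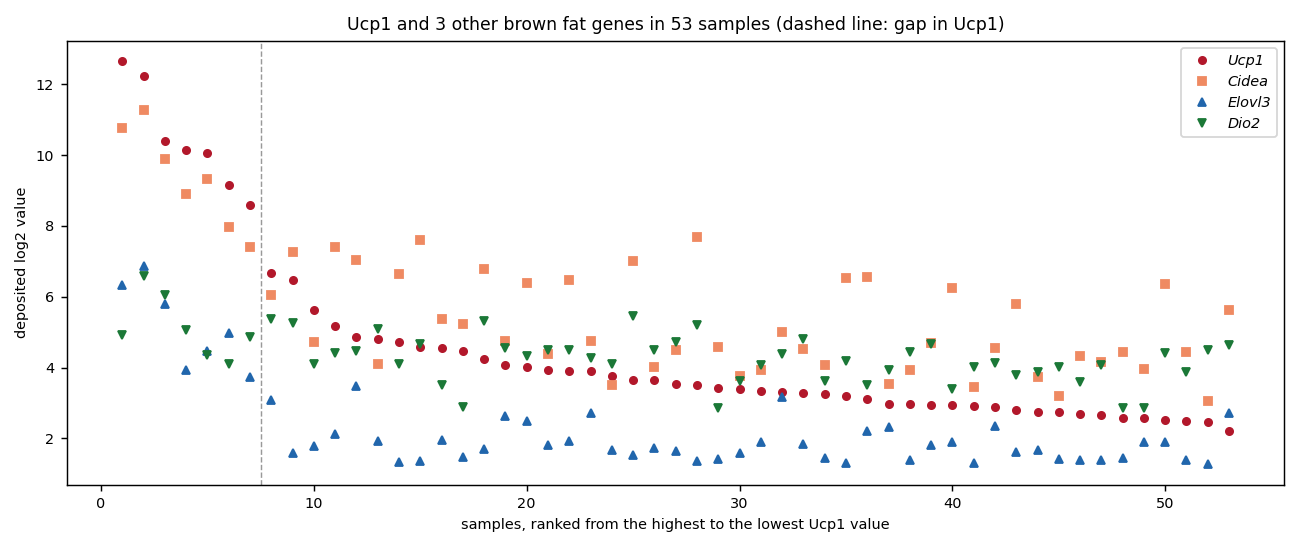
Deposited log2 values of Ucp1, Cidea, Elovl3 and Dio2 (vertical axis) in 53 samples ranked by Ucp1 (horizontal axis), 1 mark per gene and sample, with a dashed line at the gap between 8.59 and 6.68. Left of the line, Elovl3 lies above its level in every other sample, whereas Dio2 overlaps on both sides.

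Elovl3 had group medians between 1.52 and 2.71, and its highest value was 6.87 in a 16-week HFD sample. Dio2 group means lay between 3.75 ± 0.84 in 16-week SD samples (SD, n = 5) and 4.70 ± 0.64 in HFD-DR samples (n = 7). The 16-week SD samples had Dio2 values of 2.87, 2.90, 3.89, 4.42 and 4.68, and all 53 samples ran from 2.86 to 6.59. The largest Ucp1 difference between groups was that of HFD-STZ-DR from HFD-DR samples, at -2.51 ± 1.05 (limma, adjusted p = 0.999). The mean of Ucp1 was 3.23 in HFD-STZ-DR samples, under the threshold of 3.32, so the gene entered this comparison only through the HFD-DR samples (mean 5.74), of which 2 lay above the gap. Dio2 differed by -0.78 ± 0.36 between the same groups (adjusted p = 0.999). The 14 differences of Elovl3 were between -1.50 and 0.87, and the former, again HFD-STZ-DR against HFD-DR samples, had a 2-sided exact permutation p of 0.0484 (0.246 after adjustment over the 112 exact tests of members).

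At 16 weeks, HFD and SD mice were compared to ask whether the genes differ once prediabetes is present. In limma's test, 0 of 7 members tested had an adjusted p under 0.05, beside 0.00557% of all 17962 genes tested. An unadjusted p under 0.05 was seen for 4 of 7, all higher in HFD samples (Pparg, Cebpa, Cebpb and Adrb3), beside 8.55% of all genes in either direction and 4.98% with higher values. The adipocyte marker score was 12.58 ± 0.79 in these HFD and 10.42 ± 1.54 in these SD samples (SD, n = 7 and 5). With this score as a covariate, Cebpa was at -0.34 and Adrb3 at -0.23, so both differences turned. Between HFD-STZ and SD samples, 0 of 6 members had an adjusted (0% of 17879 genes) or an unadjusted p under 0.05 (8.41% of genes). Libraries also fall into runs of consecutive numbers whose meaning the labels do not give, and with the run as a block, 2 of 6 members passed here, beside 0.537% of genes. They were Cebpa at 1.29 ± 0.20 (adjusted p = 0.0449, in place of 0.68 with 0.626) and Adrb3 at 1.45 ± 0.21 (adjusted p = 0.0366, in place of 0.41 with 0.835). That fit compares samples within the 4 runs that both groups share and has 3 residual degrees of freedom. With the adipocyte marker score, Adrb3 turned to -0.56 (adjusted p = 0.52), and the mean score was 11.43 in HFD-STZ and 10.42 in SD samples.

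Between HFD-STZ and HFD samples of 16 weeks, 0 of 7 passed after adjustment (0% of 18202 genes), and Pparg, Cebpb and Prdm16, 3 of 7, had an unadjusted p under 0.05 beside 4.88% of genes, with log2 differences of -1.05, -0.44 and 0.23. The adipocyte marker score was 11.43 in HFD-STZ and 12.58 in HFD samples, and all 6 skeletal muscle markers were lower in HFD-STZ samples (median difference -1.62, mean score 7.91 against 9.52). The part of muscle in these differences was examined only with the muscle score as a covariate. With it, 0 members were called, as without it, so this count cannot decide that part. Comparisons that have a group in common share its samples.

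In 24-week mice, HFD and HFD-STZ samples were set against SD samples of the same age. Between HFD and SD samples, 0 of 7 members had an adjusted p under 0.05 in limma's test, beside 0.121% of 18191 genes, and 0 of 7 had an unadjusted p under 0.05, beside 9.05%. The 7 differences ran from -0.85 for Adrb3 to 0.78 for Ucp1. Between HFD-STZ and SD samples, likewise, 0 of 7 passed with (0.0336% of 17846 genes) or without adjustment (5.99%), and the differences ran from -0.46 for Dio2 to 0.19 for Pparg and Cebpa. HFD-STZ and HFD samples gave 0 of 7 with (0% of 18117 genes) and without adjustment (5.59%). The SE of these differences was 0.47 for Pparg and 1.47 for Ucp1 between HFD and SD samples.

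Dietary reversal was examined in both models. Between HFD-DR and HFD samples, 0 of 7 members had an adjusted p under 0.05 in limma's test (0.0108% of 18475 genes), and Pparg was the 1 of 7 with an unadjusted p under 0.05 (6.72% of genes). Between HFD-STZ-DR and HFD-STZ samples, 0 of 7 passed (0.084% of 17862 genes), while Pparg, Cebpa and Adrb3, 3 of 7, had an unadjusted p under 0.05 and were lower in HFD-STZ-DR samples, beside 6.48% of genes in either direction and 4.51% with lower values. The adipocyte marker score was 10.75 ± 0.95 in HFD-STZ-DR and 12.76 ± 1.09 in HFD-STZ samples (SD, n = 6 and 8), and with this score as a covariate, Cebpa turned to 0.32 and Adrb3 to 0.25. Other markers differed between these groups too. All 6 endothelial (median difference -0.22) and all 6 macrophage markers (-0.33) were lower in HFD-STZ-DR samples. All 6 Schwann cell (0.15), all 6 skeletal muscle (0.73) and 5 of 6 fibroblast markers (0.11) were higher. The adipocyte marker score was 11.70 ± 1.04 in HFD-DR and 12.84 ± 1.11 in HFD samples (n = 7 each). All 6 skeletal muscle markers were higher in HFD-DR than in HFD samples (median difference 2.61, mean score 12.68 against 9.98). All 6 macrophage markers were lower in HFD-DR samples (median difference -0.58). In comparison with SD samples, HFD-DR gave 0 of 7 with (0% of 18145 genes) and without adjustment (5.14%), and HFD-STZ-DR gave 0 of 7 after adjustment (0% of 17889 genes) but 4 of 7 without it (9.16%), namely Pparg, Cebpa and Adrb3 with lower and Prdm16 with higher values. HFD-STZ-DR and HFD-DR samples gave 0 of 7 after adjustment (0% of 18189 genes) and, without it, Adrb3 and Dio2, 2 of the 6 members whose mean reached the threshold in both groups, each lower in HFD-STZ-DR samples (3.58% of genes in either direction, 2.1% lower). Ucp1 had an unadjusted p under 0.05 as well, but its mean reached the threshold in HFD-DR samples alone. The difference between both models in the reversal was tested as well, and 0 of 7 passed after adjustment (0% of 18161 genes). Adrb3 had an unadjusted p of 0.0228 there, at -1.67 ± 0.69, beside 1.71% of genes under 0.05.

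With age, SD samples showed 4 of 7 members with an unadjusted p under 0.05, all higher at 24 weeks (Pparg 1.35, Cebpa 1.13, Cebpb 0.93 and Adrb3 1.69 on the log2 scale), beside 10.5% of 17788 genes in either direction and 5.43% with higher values, and 0 of 7 after adjustment (0% of genes, limma). HFD samples showed 0 of 7 with (0.0654% of 18360 genes) and without adjustment (5.9%). HFD-STZ samples showed Pparg and Cebpb, 2 of 7, without adjustment, both higher at 24 weeks (12.5% of 17963 genes in either direction, 5.85% higher), and 0 of 7 with it (0%). The adipocyte marker score was 10.42 ± 1.54 in 16-week and 12.00 ± 0.81 in 24-week SD samples (SD, n = 5 and 8), and Cebpa turned to -0.03 with it as a covariate. The change of the HFD difference with age was tested in 18087 genes, with 0 of 7 members past an adjusted p of 0.05 (0% of genes) and Adrb3 and Cebpb, 2 of 7, under an unadjusted p of 0.05 (1.67%). For the change of the HFD-STZ difference with age, 0 of 7 passed with (0% of 17871 genes) or without adjustment (4.68%).

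**Figure D3:**
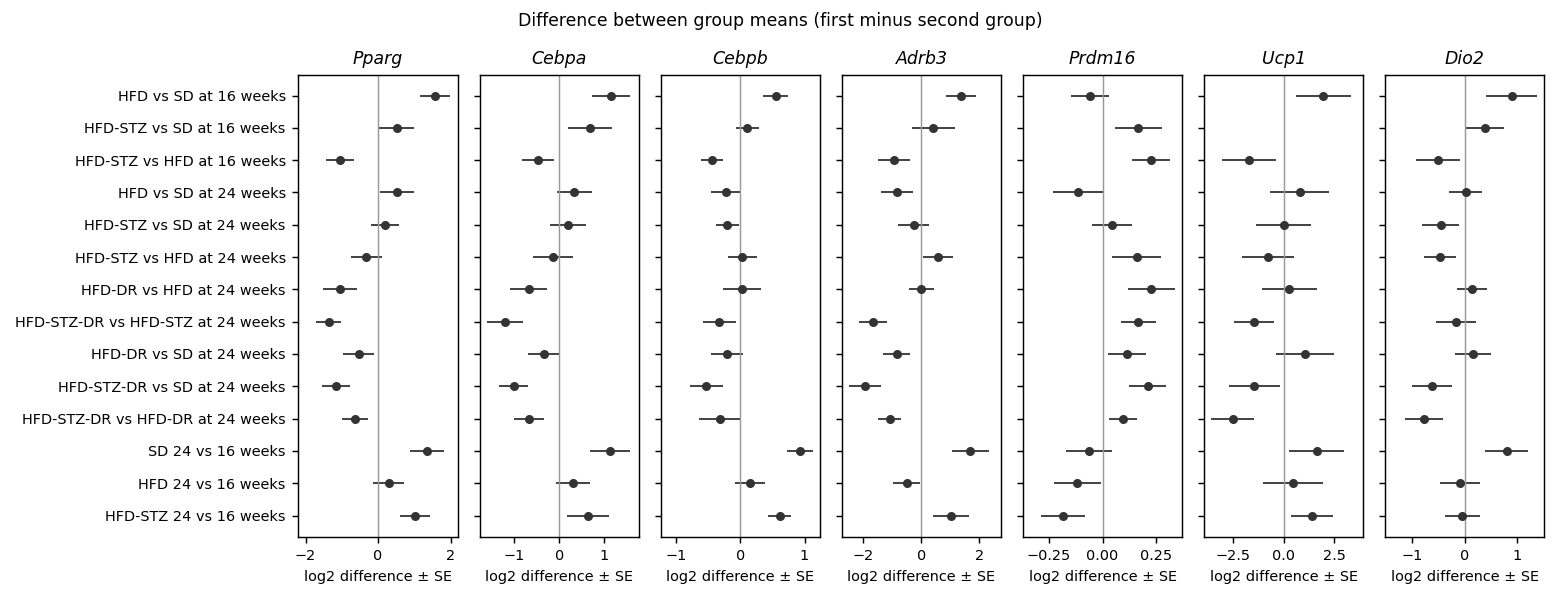
Log2 difference ± SE of limma's fit (horizontal axes, which differ in scale between panels) for 7 members in the 14 comparisons (rows, first group minus second group). Pparg, Cebpa and Adrb3 lie below 0 together for HFD-STZ-DR against HFD-STZ samples, and 0 of the differences shown had an adjusted p under 0.05.

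Over all 14 comparisons, 97 of 112 tests of a member could be made, since Elovl3 was under the threshold in each and Ucp1 in HFD-STZ against SD samples at 16 weeks. In 7 of the other comparisons, those with 16-week SD, 16-week HFD-STZ or HFD-STZ-DR samples, Ucp1 had a group mean under the threshold and was tested only through the other group. Of the 97 tests, 24 had an unadjusted p under 0.05 in limma's test, and the smallest adjusted p was 0.179. In single comparisons, between 3.58% and 12.5% of all genes had such an unadjusted p. The 24 are not independent, since Pparg, Cebpa and Adrb3 varied together and comparisons shared groups. They include Ucp1 between HFD-STZ-DR and HFD-DR samples, where it was tested only through the latter. No comparison had groups that did not overlap for any member, where between 0.00551% and 2.09% of all genes had such groups. Of the 112 exact permutation tests, the smallest p was that of Cebpb between 24-week and 16-week SD samples (2-sided exact p = 0.00155, adjusted p = 0.174). When the 8 group means of each gene were put in order, 0 of 56 pairs of neighbours differed with an exact permutation p under 0.05, and the smallest was 0.118. Neighbours were paired by their means and so had small differences, so this test cannot decide the order of the groups. The ends of the order were 24-week HFD and 16-week SD samples for Pparg (1.86 apart) and 24-week SD and HFD-STZ-DR samples for Adrb3 (1.94 apart).

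Whether the spread between samples itself differed between groups was tested on each sample's distance from its group median. In limma's test, 0 of the members tested had an adjusted p under 0.05 in any of the 14 comparisons. There were 7 members tested in each, but 6 in HFD-STZ against SD samples at 16 weeks. Of all genes, between 0% and 0.011% were called in a comparison, so a count of 0 does not set the members apart. The lowest unadjusted p, 0.00202, was that of Ucp1 between HFD-STZ and HFD samples at 16 weeks, with a mean distance of 0.338 against 2.04 (adjusted p = 1.00, beside 0.011% of 18202 genes called and 1.83% with an unadjusted p under 0.05). Ucp1 entered this comparison only through the HFD samples, since its mean was 3.31 in HFD-STZ samples, under the threshold of 3.32. With distances from the group mean, this adjusted p was 8.43e-05, while the 2-sided exact permutation p was 0.121 with medians and 0.0568 with means. Among the HFD samples, replicate 6 had a Ucp1 value of 12.22 and the next highest was 5.62. The spread was not tested without that sample, so these p-values cannot tell a spread of the whole group from 1 high sample. The mean distance of Prdm16 was 0.0478 in HFD-STZ-DR and 0.166 in SD samples of 24 weeks (unadjusted p = 0.0381, adjusted p = 1.00, limma), beside 1.93% of genes with an unadjusted p under 0.05.

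Members were next compared with marker scores of 7 cell types over the 53 samples, after subtraction of each group's mean so that differences between groups did not enter. With the adipocyte marker score, Pearson's r was 0.937 for Pparg, 0.958 for Cebpa, 0.870 for Adrb3 and 0.626 for Cebpb. Spearman's rho was 0.943, 0.955, 0.856 and 0.610, and every one of these r and rho had a permutation p of 1e-05, the smallest that the permutations could give (adjusted p = 4.31e-05 over 56 relations). Without the 2 samples farthest from the median score, r was 0.939, 0.965, 0.856 and 0.581. Among mice of the same group, Pparg, Cebpa and Adrb3 were thus high where Adipoq and the other adipocyte markers were high.

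The thermogenic genes did not show this relation past the threshold. Elovl3 had r = -0.131 and rho = -0.075 with the adipocyte marker score (permutation p = 0.314 and 0.580, adjusted p = 0.451) and Dio2 had r = -0.021 and rho = -0.048 (p = 0.888 and 0.753, adjusted p = 0.921). Without the 2 farthest samples, these r were -0.132 and -0.003. Prdm16 had r = -0.259 and rho = -0.245 (p = 0.0929 and 0.109, adjusted p = 0.168), with r = -0.201 without 2 samples. With the Schwann cell score, Prdm16 had r = 0.426 and rho = 0.412 (p = 0.00435 and 0.00491, adjusted p = 0.0101), and r = 0.422 without 2 samples.

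Markers of other cell types also moved with these genes. Cebpa had r = 0.889 and rho = 0.888 with the endothelial score (permutation p = 1e-05 each, adjusted p = 4.31e-05), and r = 0.869 without 2 samples. With the same score, Pparg had r = 0.837 and rho = 0.845, and Adrb3 had r = 0.790 and rho = 0.813 (p = 1e-05 and adjusted p = 4.31e-05 for each), with r = 0.836 and 0.777 without 2 samples. Cebpa also had r = 0.816 and rho = 0.815 with the fibroblast score and r = 0.779 and rho = 0.777 with the macrophage score (the same p and adjusted p), with r = 0.780 and 0.760 without 2 samples. With the Schwann cell score, Cebpa had r = -0.584 and rho = -0.645 (p = 3e-05 and 1e-05, adjusted p = 9.88e-05), and r = -0.551 without 2 samples. Cebpb had r = 0.497 and rho = 0.410 with the skeletal muscle score (p = 0.00053 and 0.00489, adjusted p = 0.00148), and r = 0.363 without 2 samples. The part of these cell types in the group differences of the members was tested only for the adipocyte and muscle scores, as covariates.

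**Figure D4:**
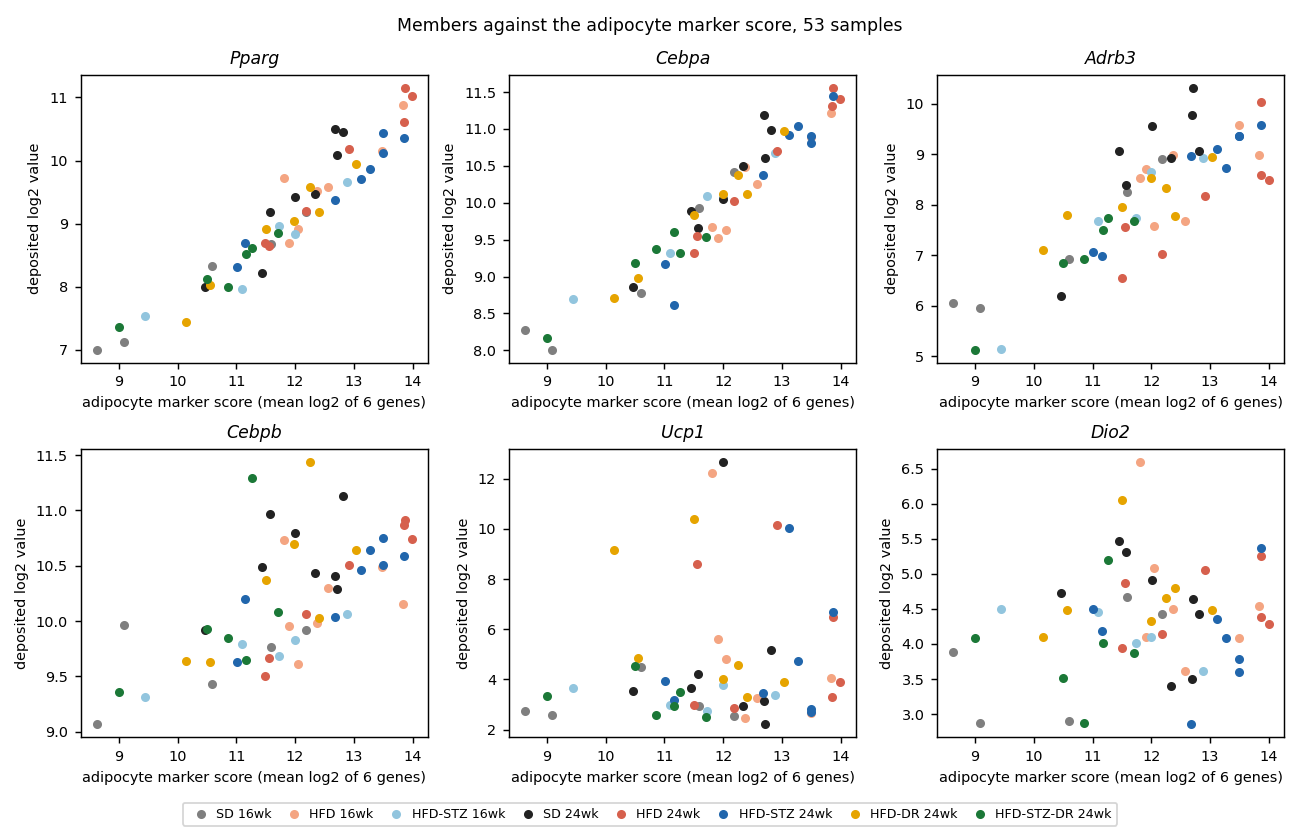
Deposited log2 values of 6 members (vertical axes) against the adipocyte marker score, the mean log2 value of 6 adipocyte genes (horizontal axes), with 1 point per sample, coloured by group. Pparg, Cebpa and Adrb3 climb with the score, Cebpb does so more loosely, and the 7 samples with Ucp1 above 8 lie at scores from 10.15 to 13.12.

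Between members, Pparg and Cebpa had r = 0.930 and rho = 0.929 over the 53 samples after subtraction of group means, Cebpa and Adrb3 had r = 0.853 and rho = 0.848, and Pparg and Adrb3 had r = 0.808 and rho = 0.798 (permutation p = 1e-05 for each, adjusted p = 4e-05 over 28 pairs). Without the 2 samples farthest from the median of the first gene, r was 0.924, 0.840 and 0.787. Ucp1 values fell into separate clusters of samples, so its relations were examined within each cluster. These used values as deposited, without subtraction of group means, and permutations across groups, so differences between groups entered. In the 7 samples above the gap, Ucp1 and Elovl3 had r = 0.840 and rho = 0.821 (exact permutation p = 0.0234 and 0.0341, adjusted p = 0.0468 over 8 relations), but r was 0.480 without 2 samples, so this relation rests on those samples. In the 46 samples below it, they had r = 0.278 and rho = 0.268 (permutation p = 0.0601 and 0.0731, adjusted p = 0.0962). Ucp1 and Cidea had r = 0.955 and rho = 0.929 above the gap (exact permutation p = 0.00238 and 0.00675, adjusted p = 0.00952), and r = 0.966 without 2 samples. Ucp1 and Dio2 had r = 0.525 and rho = 0.679 there (exact permutation p = 0.202 and 0.110, adjusted p = 0.230), and r = 0.497 without 2 samples. Below the gap, Ucp1 and Cidea had r = 0.462 and rho = 0.482 (permutation p = 0.00128 and 0.00091, adjusted p = 0.00952), and r = 0.409 without 2 samples, while Ucp1 and Dio2 had r = 0.401 and rho = 0.393 (p = 0.00541 and 0.00715, adjusted p = 0.0144), and r = 0.240 without 2 samples. With the adipocyte marker score, Ucp1 had r = 0.253 and rho = 0.25 above the gap (exact permutation p = 0.587 and 0.595, adjusted p = 0.587) and r = 0.223 and rho = 0.101 below it (permutation p = 0.135 and 0.503, adjusted p = 0.180).

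Because Pparg, Cebpa and Adrb3 followed the adipocyte markers, each comparison was fitted again with that score added as a covariate. No member had an adjusted p under 0.05 then in 13 of the 14 comparisons. Differences of Cebpa and Adrb3 with an unadjusted p under 0.05 turned in sign in 2 of them, HFD against SD samples at 16 weeks and HFD-STZ-DR against HFD-STZ samples, as did that of Cebpa between SD samples of both ages. The differences of Pparg with an unadjusted p under 0.05 all kept their sign with the covariate. The call in the remaining comparison was that of Adrb3 between HFD and SD samples at 24 weeks. It was lower in HFD samples by -1.72 ± 0.36 on the log2 scale (limma, adjusted p = 0.0383), where 0.682% of 18191 genes were called. Without the covariate, this difference was -0.85. Of the 7 HFD samples, replicates 1, 4 and 6 had scores of at least 13.86, above the highest SD score of 12.82, and replicate 7 had 12.92, so 4 of the 7 HFD samples lay in a range of scores that SD samples did not cover.

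The same fit gave -1.07 ± 0.27 for Adrb3 between HFD-STZ and SD samples (adjusted p = 0.167) and 0.79 ± 0.31 between HFD-DR and HFD samples (adjusted p = 0.574). With all 8 groups in 1 fit and the score, the HFD difference of Adrb3 was -1.59 ± 0.28 (adjusted p = 0.000558, beside 0.67% of genes called), and with the runs of library numbers added, it was -1.54 ± 0.28 (adjusted p = 0.00109). With a score of 6 other adipocyte genes (Lep, Retn, Pck1, Aqp7, Tusc5 and Lpl), it was -1.72 ± 0.34 (adjusted p = 0.0378). When each sample was left out of the fit of HFD and SD samples in turn, the difference ran from -1.99 to -1.58 and was called in 6 of 15 fits, with adjusted p-values from 0.0139 to 0.128. The call was lost without SD replicate 2, 6, 7 or 8 and without HFD replicate 1, 2, 5, 6 or 7.

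**Figure D5:**
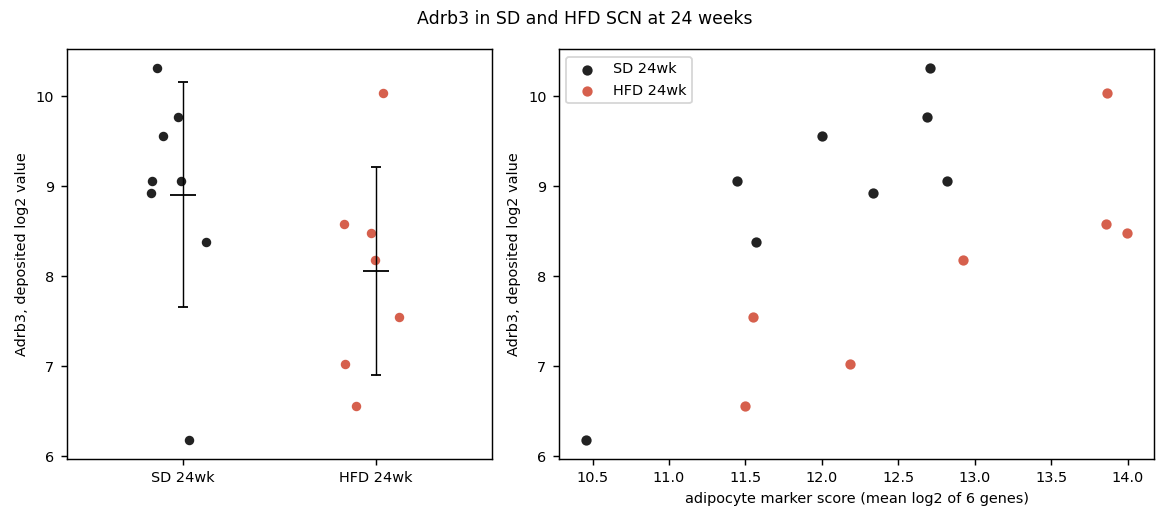
Adrb3 (vertical axes, deposited log2 value) in 8 SD and 7 HFD samples of 24 weeks, by group with mean ± SD (left) and against the adipocyte marker score (right, mean log2 value of 6 genes), 1 point per sample. The groups overlap on the left, and on the right, 4 of the 7 HFD samples have scores above the highest SD score of 12.82.

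The genes whose values over the 53 samples were most like those of each member, after subtraction of group means, were sought among 18068 to 18069 other genes. For Pparg, they were Pnpla2 (r = 0.947), which encodes the lipase that starts the breakdown of triglyceride, Mgst1 (r = 0.939) and the glycerol channel gene Aqp7 (r = 0.939). For Cebpa, they were the hormone-sensitive lipase gene Lipe (r = 0.971), Klhdc7a (r = 0.965) and Lgals12 (r = 0.963), the latter encoding a galectin of lipid droplets. Those of Adrb3 were Ces1d (r = 0.900), H2-Q10 (r = 0.887) and Adig (r = 0.883), and those of Cebpb were Etfa (r = 0.896), which encodes a subunit of the electron transfer flavoprotein, Tmem37 (r = 0.890) and Clybl (r = 0.881). Prdm16 was most like Fmn2 (r = 0.804), Zfp608 (r = 0.801) and Zbtb10 (r = 0.789). Ucp1 was most like Cidea (r = 0.858), the fatty acid transport gene Slc27a2 (r = 0.815) and the glycerol kinase gene Gk (r = 0.529). Elovl3 was most like Ucp1 (r = 0.867), Slc27a2 (r = 0.800) and Cidea (r = 0.748), and Dio2 was most like Cidea (r = 0.558), Gm9899 (r = 0.525) and 2210406O10Rik (r = 0.493). These correlations are descriptions over samples that share libraries and groups, and those of Ucp1 and Elovl3 include the 7 samples above the gap.

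Lists of further genes of the same pathways were examined in the same fits, and 1 gene in 1 comparison had an adjusted p under 0.05. This was Tusc5, a gene of insulin-stimulated glucose transport in fat that PPARG activates, at -2.17 ± 0.38 between HFD-STZ-DR and HFD-STZ samples (limma, adjusted p = 0.0486). With the adipocyte marker score in the fit, it was -1.53 ± 0.51 (adjusted p = 0.351, 0% of genes called). The call was also lost when low genes were kept (adjusted p = 0.157), with the threshold in every sample (0.0622), with robust empirical Bayes (0.0518), with a prior without trend (0.0568) and with the muscle score (0.0789). It was kept with all 8 groups in 1 fit, without (0.0147) and with library-number run (0.0237), and with median centring (0.0482). Of 29 PPARG target genes, 24 had lower and 5 had higher values after reversal in the HFD-STZ model. An unadjusted p under 0.05 was seen for 20 of 29, all lower, beside 6.48% of all genes in either direction and 4.51% with lower values, and their median difference was -1.49 beside 0.01 for all genes tested. Next to Tusc5 stood Angptl4, encoding an inhibitor of lipoprotein lipase, at -0.90 ± 0.16 (adjusted p = 0.0503). Between HFD-STZ-DR and SD samples, 21 of 29 had an unadjusted p under 0.05, all lower, beside 4.67% of all genes with lower values. Between HFD-DR and HFD samples, 13 of 29 were lower (4.57% of all genes) and 3 higher (2.15%) by this measure, and 0 were called after adjustment in either comparison. At 16 weeks, 14 of 29 were higher in HFD than in SD samples by this measure (4.98% of all genes, median difference 0.95, 0 called), and 17 of 29 were higher in 24-week than in 16-week SD samples (5.43% of all genes, median difference 1.15, 0 called). Several of these genes are themselves expressed mainly in adipocytes, and the adipocyte marker score moved in the same direction in each of these comparisons.

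At 24 weeks, 19 of 29 PPARG target genes had higher and 10 had lower values in HFD than in SD samples, with a median difference of 0.40 beside 0.01 for all genes tested. With an unadjusted p under 0.05, 8 were higher, beside 5.54% of all genes, and 3 were lower, beside 3.51%, and 0 were called in limma's test. The smallest p-values were those of Hp, encoding haptoglobin, at 2.06 ± 0.49 (adjusted p = 0.128), and of Cfd, encoding the adipocyte protein adipsin, at -1.87 ± 0.46 (adjusted p = 0.139), which thus pointed in opposite directions. Among 24 genes of beta-adrenergic and cAMP signalling, 0 were called, and 2 had an unadjusted p under 0.05, beside 9.05% of all genes, both higher in HFD samples. They were Prkar2b, encoding a regulatory subunit of protein kinase A, at 0.55 ± 0.13 (adjusted p = 0.133) and the adenylate cyclase gene Adcy5 at 0.50 ± 0.23 (adjusted p = 0.533). Of 28 other adipogenic regulators, 0 were called and 2 had an unadjusted p under 0.05, beside the same 9.05%, namely Srebf1 at -0.32 ± 0.12 (adjusted p = 0.438) and Egr2, also a regulator of myelination in Schwann cells, at -0.37 ± 0.14 (adjusted p = 0.462). Of 31 other thermogenic genes tested, of 36 listed, 0 were called and 0 had an unadjusted p under 0.05, with the smallest p-values for Pank1 (-0.35 ± 0.17, adjusted p = 0.557) and Gk (0.25 ± 0.12, adjusted p = 0.559).

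Between HFD-STZ-DR and HFD-STZ samples, the other lists moved less than the PPARG target genes, with 0 called in each (limma). Of the 31 other thermogenic genes tested, 1 was higher and 3 were lower with an unadjusted p under 0.05. Among all genes, 6.48% had such a p in either direction and 4.51% with lower values. The 3 lower thermogenic genes included Klb, encoding the FGF21 co-receptor, at -1.98 ± 0.43 (adjusted p = 0.112), and the potassium channel gene Kcnk3 at -1.59 ± 0.36 (adjusted p = 0.128). Of the genes of beta-adrenergic and cAMP signalling, 3 of 24 were lower by this measure, beside the same 4.51%. Among them were Pde3b, encoding a phosphodiesterase that breaks down cAMP in adipocytes, at -1.19 ± 0.29 (adjusted p = 0.174), and Adcy5 at -0.78 ± 0.33 (adjusted p = 0.694). Of the other adipogenic regulators, 1 of 28 was higher, Klf15 (0.28 ± 0.09, adjusted p = 0.347), and 1 was lower, Nr1h3 (-0.23 ± 0.08, adjusted p = 0.41), beside 6.48% of all genes in either direction. Median differences of these 3 lists were between -0.08 and 0.02, beside 0.01 for all genes tested.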

How the data were processed

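RNA from whole SCN was sequenced from non-stranded libraries of polyadenylated RNA. The authors aligned reads with HISAT2 to mm10, counted them with featureCounts and deposited 1 log2 value per gene and sample, which they normalised in a way not given in the sources used here (DESeq2 is named in the submitters' processing notes). The values are neither counts nor FPKM, low values are compressed, and the reads behind them are unknown. Differences came from limma 3.58.1 (R 4.3.3), with a trended empirical Bayes prior and only the samples of the groups compared, where a test of read counts had been planned. Genes entered with a mean log2 value over 3.32 in these samples, and 25 genes exceeding 22 in a sample were left out. Benjamini-Hochberg adjustment ran over all genes tested. Exact permutation tests over samples were 2-sided, and correlations used 100000 permutations within groups, or over all orders for 7 samples. Whether samples of a group came from separate mice is not stated in the labels, so p-values measure the spread between samples. The test was tried on simulated data for HFD against SD at 24 weeks (200 genes changed of 18045 to 18065 tested), where 39.5% of log2 changes of 0.5, 86% of 1 and 96% of 2 were recovered. The changed genes were drawn at random, with independent normal noise. All members but Prdm16 had a spread above that of the median gene, so these rates do not give the recovery of changes in members. Members and lists were chosen with earlier results of these data known. Genes named beside the members are the 3 most like each member, list genes past the threshold, and the 2 with the smallest p of each list in 2 comparisons (HFD against SD and HFD-STZ-DR against HFD-STZ at 24 weeks). Cidea, Cox7a1 and Cox8b in the ranked samples, the gap in Ucp1 and the markers given by range were picked after their values were seen. The adipocyte score in the fit of 8 groups, with and without library-number run, the run as block in fits of 2 groups, the score of other adipocyte genes and leaving out samples in the fit with the score were added after seeing the data. Coordinates are from GENCODE M21, and promoter windows were available for 6 members from RefSeq. Figures were drawn with matplotlib 3.10.9.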

Additional observations from a re-analysis of the deposited data

Results flagged for a closer look

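In 64 groups of values (8 genes in 8 groups), 10 values, from 7 samples, stood apart, in that the gap to the nearest value took more of the group's whole range than Dixon's 95% limit allows. Chance marks about 1 group in 20. They were 7 highest and 3 lowest values. For Ucp1, they were the HFD sample at 12.22 (16 weeks, replicate 6, next 5.62), the SD sample at 12.66 (24 weeks, replicate 2, next 5.17) and the SD sample at 4.48 (16 weeks, replicate 3, next 2.94). The first 2 of these samples were also marked for Elovl3, at 6.87 (next 2.64) and 6.33 (next 2.71). For Dio2, HFD-DR replicate 4 was marked at 6.05 (next 4.80), which is also among the samples with Ucp1 above 8.

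In HFD-STZ-DR samples, replicate 2 was marked as lowest for both Cebpa (8.17, next 9.18) and Adrb3 (5.13, next 6.84), and it had the lowest adipocyte marker score of its group. Cebpb had a high HFD-STZ-DR sample at 11.29 (replicate 4, next 10.08). Adrb3 had a low SD sample at 6.18 (24 weeks, replicate 4, next 8.38), which had the lowest adipocyte marker score of its group, 10.46. The part of single cell types in these values was not tested.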

How the results depend on the processing

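The number of members called was 0 in each of the 14 comparisons and 3 interactions, and it stayed at 0 in all of these without a filter on low values and with all 8 groups in 1 fit, and in the comparisons with a threshold in every sample, with robust empirical Bayes, with a prior without trend, with median centring and with a muscle marker score as covariate. It was 1 between HFD and SD samples at 24 weeks with the adipocyte marker score in the fit of these groups, of all 8 groups, of all 8 groups with library-number run, or with other adipocyte genes as the score, and 1 between 24-week and 16-week SD samples in the fit of all 8 groups with library-number run. When the run of library numbers entered fits of 2 groups as a block, it was 2 (Cebpa and Adrb3) between HFD-STZ and SD samples at 16 weeks and 0 in the 13 other comparisons. Leaving out 1 sample gave 0 to 1 between HFD-STZ-DR and HFD-STZ samples. The number of members called for spread was 1 in place of 0 between HFD-STZ and HFD samples at 16 weeks with group means as centres. The cause was not tested. Of the member differences with an unadjusted p under 0.05, and of Cebpa and Adrb3 between HFD-STZ and SD samples at 16 weeks, those that turned did so with an adipocyte score as covariate. In the 8-group fits with the adipocyte marker score and the fits with other adipocyte genes, only the direction of Adrb3 was examined. Between HFD and SD samples at 16 weeks, Cebpa turned to -0.34 and Adrb3 to -0.23, and Adrb3 to -0.55 and -0.47 in the 8-group fits without and with library-number run and to -0.26 with other adipocyte genes. Between HFD-STZ and SD samples of that age, Adrb3 turned to -0.56, -0.48, -0.36 and -0.60 in the same order. Between HFD-STZ-DR and HFD-STZ samples, Cebpa turned to 0.32 and Adrb3 to 0.25, and Adrb3 to 0.0983, 0.0166 and 0.460 in the other fits. Between 24-week and 16-week SD samples, Cebpa turned to -0.034 with the adipocyte marker score and Adrb3 to -0.00842 with other adipocyte genes. In 253 fits with 1 sample left out, 0 of these differences turned. Leaving out samples was not run for HFD-STZ against HFD, HFD-DR or HFD-STZ-DR against SD and HFD-STZ-DR against HFD-DR at 24 weeks, or for HFD with age. No paired analysis was possible because the labels give no replicate numbers, and the run entered as a block in its place. Without read counts, the precision of low genes such as Elovl3 is unknown.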
